A study of Homo sapiens with 3 samples.

Results

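Peak summits of the transcription factor SP1 that lie between genes, and not far from one, are described here. CUT&RUN was applied to H1299, an established cell line from a human non-small cell lung cancer whose cells the labels describe as lung adenocarcinoma. In this assay an antibody brings a nuclease to its target in the nucleus and the released DNA is sequenced. The labels name no genetic change or treatment of the cells, whose identity these files, with no expression values, cannot check. The groups are 1 library each with an antibody against SP1, an antibody against H3K27ac and a control IgG. A summit was included when it was not on chromosome 19, lay outside every protein-coding gene span of RefSeq (GRCh38.p14), was over 1000 and at most 100000 bases from the nearest such span, and was over 1000 bases from every end of a long non-coding RNA (lncRNA) span. Of 5570 SP1 summits, 816 met this rule, and they are called intergenic SP1 summits below. Each summit carries the authors' score, a −log10 p-value or q-value. Each antibody has a single library, so values have no replicate and no test between conditions was possible. Intervals are 95% intervals that cover counting error only, and they treat summits as independent. The sequencing depth is unknown, and the IgG library was not analysed here.

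SP1 is a zinc-finger transcription factor that binds GC boxes, short GC-rich elements common in promoters that lie in CpG islands. It recruits the general transcription machinery and also binds some enhancers, regulatory stretches that can lie far from the gene they act on. Acetylation of lysine 27 on histone H3 (H3K27ac) marks active promoters and enhancers, so its presence beside an SP1 site between genes is the usual sign of an active enhancer. The rule uses position alone. The scores, the H3K27ac calls and the ranked regions were not used to choose the summits.

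Sequence under the summits themselves was not used here, since the sequences at hand are those of RefSeq promoters (GRCh38.p14). The following 6 stretches of 250 bases directly before a listed start site are shown because a summit lay near that start site or gene, and they were chosen after the values were seen. Capitals mark the GC box core, searched as GGGCGG or CCGCCC so that both strands are covered, with overlapping matches counted. The first pair belongs to the genes of the only 2 intergenic SP1 summits within 1000 bases of a listed start site, and for each the start site nearest to the summit is shown. SAP30-DT is a lncRNA gene that diverges from SAP30, a corepressor subunit gene, and the stretch is at chr4:173369795-173370044 on the minus strand. LINC02625 is another lncRNA gene, with its stretch at chr10:61821418-61821667 on the minus strand. For the next 3 genes an intergenic SP1 summit had the gene as its nearest, and a further SP1 summit lay within 1000 bases of a start site. These are EOLA2 at chrX:149938492-149938741 (minus), PRPSAP2 at chr17:18857818-18858067 (plus) and ZNF217 at chr20:53593840-53594089 (minus). The last is ITGB1 at chr10:32958231-32958480 (minus), the gene nearest to an intergenic summit in one of the best-ranked H3K27ac regions.
SAP30-DT: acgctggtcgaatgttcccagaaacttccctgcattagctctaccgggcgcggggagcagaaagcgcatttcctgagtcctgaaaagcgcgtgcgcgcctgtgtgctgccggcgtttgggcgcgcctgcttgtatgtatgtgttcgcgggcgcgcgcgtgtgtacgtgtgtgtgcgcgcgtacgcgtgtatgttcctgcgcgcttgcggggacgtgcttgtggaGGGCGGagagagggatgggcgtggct
LINC02625: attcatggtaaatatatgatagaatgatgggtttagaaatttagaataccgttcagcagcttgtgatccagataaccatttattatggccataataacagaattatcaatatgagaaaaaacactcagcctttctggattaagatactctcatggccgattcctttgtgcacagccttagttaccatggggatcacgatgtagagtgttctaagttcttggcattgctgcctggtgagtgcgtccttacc
EOLA2: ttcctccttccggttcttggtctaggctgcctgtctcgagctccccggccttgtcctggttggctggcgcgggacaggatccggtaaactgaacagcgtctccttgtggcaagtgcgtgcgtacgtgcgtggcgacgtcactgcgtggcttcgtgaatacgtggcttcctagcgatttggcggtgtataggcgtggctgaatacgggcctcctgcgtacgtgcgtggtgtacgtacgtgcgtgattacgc
PRPSAP2: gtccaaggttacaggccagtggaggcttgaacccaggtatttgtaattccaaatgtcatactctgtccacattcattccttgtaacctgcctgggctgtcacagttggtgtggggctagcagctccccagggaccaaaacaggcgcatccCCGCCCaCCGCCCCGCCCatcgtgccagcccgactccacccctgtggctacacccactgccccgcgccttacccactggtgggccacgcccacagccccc
ZNF217: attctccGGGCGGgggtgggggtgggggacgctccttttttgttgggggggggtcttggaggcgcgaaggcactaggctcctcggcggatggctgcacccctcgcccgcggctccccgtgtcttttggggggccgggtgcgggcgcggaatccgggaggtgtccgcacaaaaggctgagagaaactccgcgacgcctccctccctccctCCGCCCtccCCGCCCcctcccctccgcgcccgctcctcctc
ITGB1: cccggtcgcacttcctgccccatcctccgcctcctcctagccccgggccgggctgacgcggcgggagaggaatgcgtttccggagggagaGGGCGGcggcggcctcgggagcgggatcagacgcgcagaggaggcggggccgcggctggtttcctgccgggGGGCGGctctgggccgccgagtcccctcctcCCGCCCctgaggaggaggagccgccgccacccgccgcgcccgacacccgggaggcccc

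The SAP30-DT stretch held 1 GC box, and the SP1 summit (score 10.9) lay outside the stretch, 158 bases past its start site. The LINC02625 stretch held none, with an SP1 summit of 4.16 outside it, 11 bases past the start site. In EOLA2, whose stretch also held none, an SP1 summit of 11.1 lay inside it at 187 bases from the start site, and the intergenic summits of 17.6 and 13.1 lay further out, at 1839 and 1400 bases from the gene. PRPSAP2, a gene of nucleotide metabolism, had 3 GC boxes in the stretch and an SP1 summit of 25.1 within it. The intergenic summit nearest to PRPSAP2 scored only 4.35 at 5952 bases. ZNF217, a zinc-finger repressor gene, had 3 GC boxes in the stretch. An SP1 summit of 13.5 lay outside that stretch, at 380 bases from the start site. The intergenic summits nearest to ZNF217, of 5.06 and 4.16, lay 25737 and 27516 bases from the gene. ITGB1 had 3 GC boxes and no SP1 summit within 1000 bases of the start site shown. A match is a description of these letters, not a binding site. Among the 749 genes nearest to an intergenic summit, 590 were found in the promoter table. Of their 862 stretches of 250 bases, 55.3% (52.0 to 58.6) held a GC box, against 53.0% of all 20651 protein-coding stretches off chromosome 19, with no test made.

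Intergenic SP1 summits were weak calls. Their median score was 5.16 (95% interval 4.95 to 5.21, quartiles 4.30 and 6.28), from 3.001 to 54.0. SP1 summits inside genes off the ends (n = 1335) had a median of 5.31, and those over 100 kb from genes (n = 606) had 5.06. The 2052 summits at protein-coding gene ends had 7.92 (7.70 to 8.07), and the 133 at lncRNA ends only had 6.81 (6.02 to 7.40). Their intervals do not overlap that of the intergenic summits. A score over 10 was reached by 47 intergenic summits, or 5.76% (4.36 to 7.58), beside 20.4% of all SP1 summits. It was reached by 8.84% (7.43 to 10.5) inside genes, 5.28% (3.77 to 7.36) over 100 kb from genes and 31.3% (29.4 to 33.4) at gene ends. The scores were coarse. The 816 summits had 343 distinct values, and the commonest, 5.21, was that of 40 summits.

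**Figure D1:**
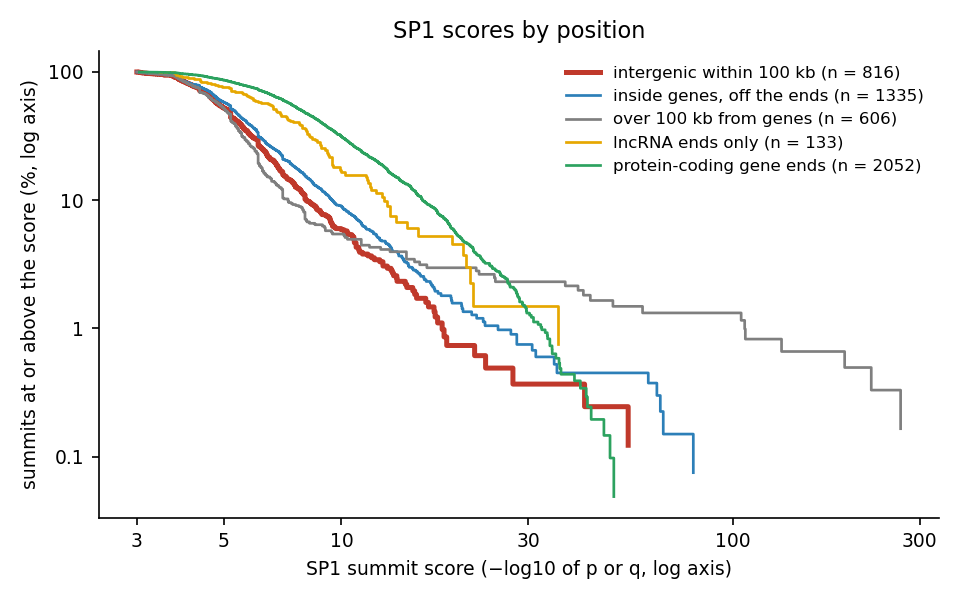
Share of SP1 summits at or above each score (both axes logarithmic) for each kind of position off chromosome 19, with the number of summits in the legend. At a score of 10 the intergenic line stands at 5.76% and the line of gene ends at 31.3%; the distant group has the longest tail, to 268.

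When all 5570 SP1 summits were sorted by score into 10 groups of 557, the intergenic share was 24.96% (21.5 to 28.7) in the lowest group, 17.1% in the fifth and 3.23% (2.05 to 5.05) in the highest. In numbers, 139 intergenic summits were in the lowest group and 18 in the highest. Summits at gene ends ran the other way, with 74 in the lowest group and 304 in the highest. Among the 100 highest SP1 summits, 2 were intergenic.

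**Figure D2:**
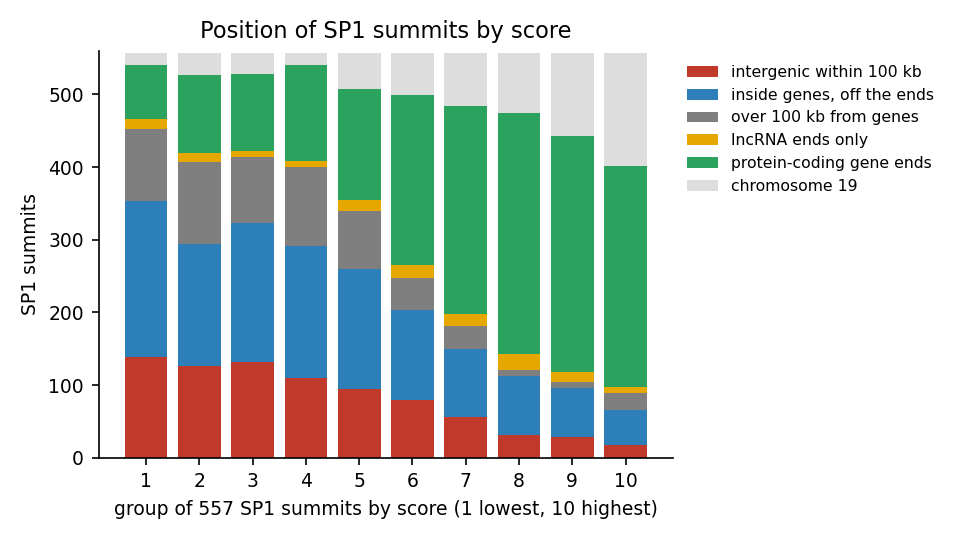
Number of SP1 summits of each kind of position (stacked bars) in 10 groups of 557 by score, from the lowest (1) to the highest (10). The intergenic part shrinks from 139 to 18 summits while the part at gene ends grows from 74 to 304.

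The territory that the rule allows was large, so the summits were sparse in it. Estimated on a grid of 100 bases, intergenic sequence of this kind covered 746 Mb and held 1.09 SP1 summits per Mb (Poisson interval 1.02 to 1.17). Gene interiors off the ends held 1.12 per Mb (1.06 to 1.18), sequence over 100 kb from genes 0.620 (0.571 to 0.671), lncRNA ends 3.01 (2.52 to 3.57) and protein-coding gene ends 30.3 (29.0 to 31.7). The density between genes was thus close to that inside them and far below that at gene ends. The H3K27ac list happened to have the same number of summits in this territory, 816, and a like density inside genes, 1.04 per Mb (0.982 to 1.10). Its density at gene ends was 2.14 per Mb (1.81 to 2.52).

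Density and score both differed with the distance to the nearest gene. The median distance was 21583 bases (quartiles 7679 and 46148), within limits set by the rule. Between 1000 and 2500 bases from a gene there were 69 intergenic summits, or 1.93 per Mb (1.502 to 2.44), and between 50000 and 100000 bases there were 178, or 0.849 per Mb (0.729 to 0.983). Their median scores were 6.34 and 4.90. Scores over 10 made up 14.5% (8.07 to 24.7) in the nearest bin and 1.12% (0.309 to 4.004) in the farthest, 2 summits of 178. H3K27ac summits in the same bins had 1.18 (0.847 to 1.59) and 0.978 (0.848 to 1.12) per Mb, with intervals that overlap. Across the 816 summits, score and distance had a Spearman rho of -0.15, given as a description over summits of 1 library. Where the strand of the nearest gene was listed, 341 summits lay on its start side and 296 on its end side. Per Mb of such territory these were 1.08 (0.965 to 1.20) and 1.10 (0.974 to 1.23), so the sides had like densities. Within 10000 bases of the gene, 14 of 114 summits on the start side and 4 of 83 on the end side scored over 10.

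**Figure D3:**
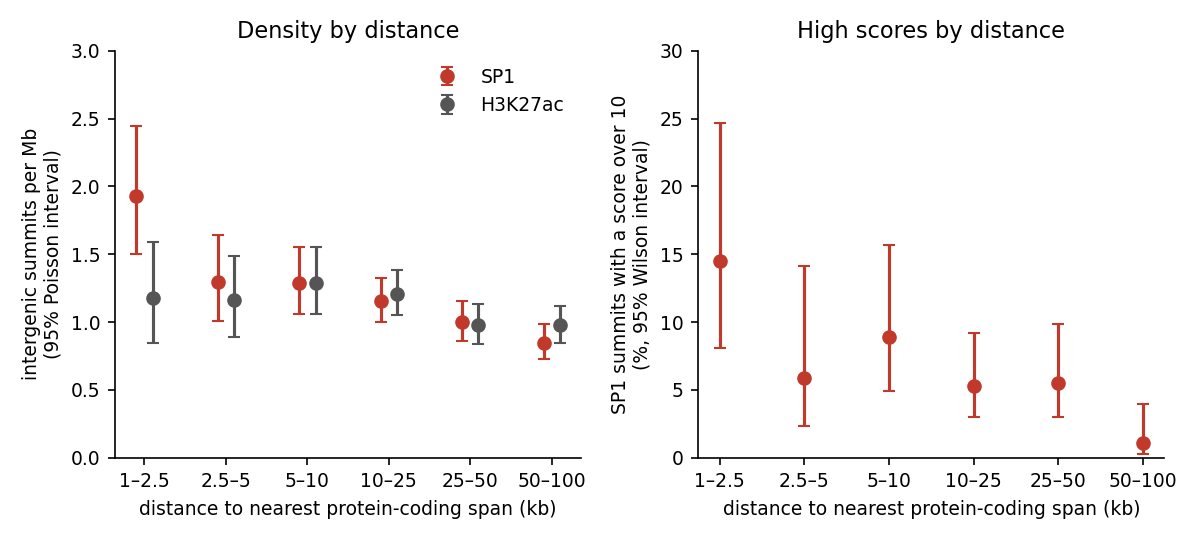
Left, intergenic summits per Mb of allowed territory for SP1 and H3K27ac by distance to the nearest protein-coding span, with 95% Poisson intervals; right, the share of intergenic SP1 summits with a score over 10, with 95% Wilson intervals. The SP1 density is 1.93 per Mb in the nearest bin and 0.849 in the farthest, and the share of high scores is 14.5% and 1.12%.

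At the limits of the rule, scores on both sides were between 4.07 and 6.78. The nearest included summits were 1003 bases from DUSP22 (score 6.43), 1010 from POLD4 (6.78) and 1015 from POU5F1B (4.49). Those just left out lay 977 bases from HERPUD1 (5.46), 960 from PRMT6 (4.07) and 928 from PLXNA2 (6.69). At the outer limit, summits at 99559 bases from ZNF618 (4.71), 99392 from TMEM130 (5.14) and 99224 from KCNJ18 (6.13) were included. Summits at 100525 bases from NXPE2 (4.07), 100968 from VPREB1 (4.95) and 102166 from PPP1R26 (5.78) were not.

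The 10 highest intergenic summits were of different kinds. The first, on chromosome 2 at 90398622, scored 54.0 and ranked 17 among all SP1 summits. It lay 37496 bases from LOC124905368, and an H3K27ac summit of 38.3 lay 58 bases from it. The second, on chromosome 11 at 66312562, scored 41.8 at 1932 bases from CD248, which encodes endosialin, a surface protein of stromal cells. Its nearest H3K27ac summit was 396157 bases away. The third, on chromosome 8 at 85660220, scored 27.4 beside an H3K27ac summit of 24.4 at 27 bases. It lay 75094 bases from LOC101929601 and 1036 bases from the pseudogene REXO1L1P. Next came a summit of 23.4 at 13537 bases from KBTBD2, an adaptor gene of a ubiquitin ligase, and one of 21.9 at 3995 bases from the zinc-finger gene ZNF205. The summit at 5792 bases from FOXJ2, a forkhead factor gene, scored 18.6 and had a second summit 400 bases away. The remaining 4 scored 18.3 near GRAPL, 18.1 near SPDYE21, 17.6 near EOLA2 and 17.4 near GLIS2, a zinc-finger factor gene. The one near GRAPL lay 1079 bases from SNORD3D, a U3 small nucleolar RNA gene, and the one near SPDYE21 lay inside STAG3L4, a transcribed pseudogene. Of the 10, those near LOC124905368 and LOC101929601 had an H3K27ac summit within 500 bases, and for the others the nearest was 77036 bases away or more. Whether the IgG library had signal at these or other shared summits was not examined, nor were repeats in the sequence. The overlap alone therefore does not show an enhancer at these places.

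**Figure D4:**
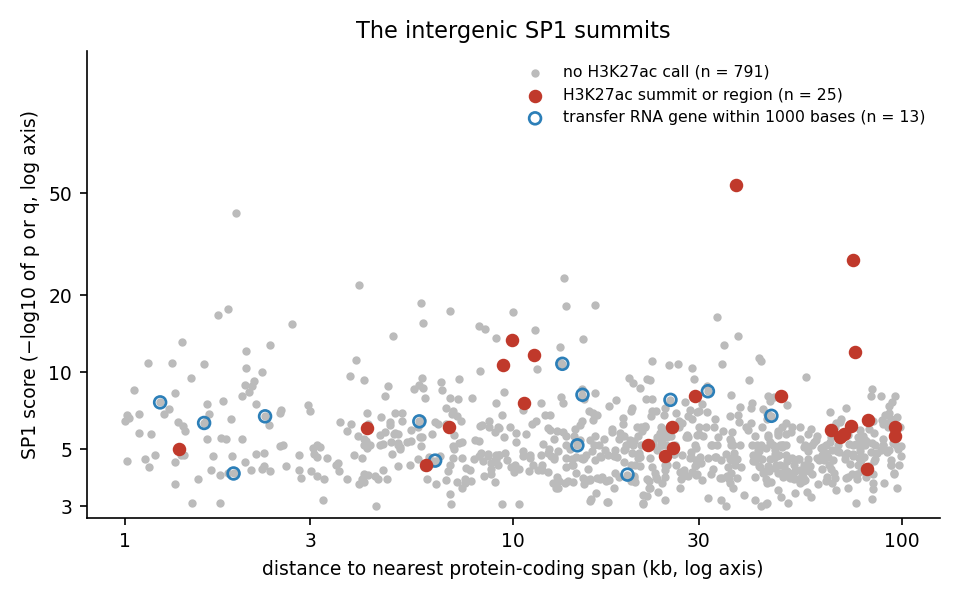
Score of each of the 816 intergenic SP1 summits against its distance to the nearest protein-coding span (both axes logarithmic). Filled red points are the 25 summits within 500 bases of an H3K27ac summit or inside an H3K27ac region, open blue rings the 13 within 1000 bases of a transfer RNA gene, and grey points have no H3K27ac call; the highest red point scores 54.0.

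Few intergenic SP1 summits coincided with H3K27ac. The H3K27ac list was itself sparse at gene ends, with a summit at an end of 165 of 18586 protein-coding genes off chromosome 19 (0.888%). The lack of an H3K27ac summit in this list therefore does not show that a site was inactive. An H3K27ac summit lay within 500 bases of 22 of 816, or 2.696% (1.79 to 4.05), beside 2.41% of all SP1 summits. The share was 2.17% (1.52 to 3.10) inside genes, 9.41% (7.33 to 12.0) over 100 kb from genes and 0.926% (0.594 to 1.44) at gene ends. Between genes the share was near that of the whole list when summits of all scores were taken. It was 4.67% among the 214 intergenic summits above the list's median score and 8.06% among the 62 above its upper quartile. The same shares of all SP1 summits above these scores were not computed. Scores over 10 were reached by 5 of the shared intergenic summits, and by 1 when nearest genes that are LOC entries were left out. For 16 intergenic summits, or 1.96% (1.21 to 3.16), the summit lay inside an H3K27ac region, beside 1.58% of all SP1 summits. The share was 0.974% (0.570 to 1.66) inside genes, 8.91% (6.89 to 11.4) over 100 kb from genes and 0.0487% at gene ends. The gene ends thus lower the share of the whole list. At gene ends 19 summits had an H3K27ac summit within 500 bases and 1 was in a region, beside 22 and 16 between genes. Whether the H3K27ac region list was made to leave out start sites is not stated. The contrast of region shares with gene ends and with the whole list is therefore a description only. An H3K27ac summit within 500 bases, or an H3K27ac region around the summit, was found for 25 intergenic summits. Where summits were shared the positions were close, with a median offset of 71.5 bases and 13 of 22 within 100 bases. The median distance from an intergenic SP1 summit to the nearest H3K27ac summit was 249897 bases, and 239 of 816 had one within 100 kb. The H3K27ac list held 1.09 summits per Mb between genes. These distances were not summarised for other SP1 summits, so they are not shown to be particular to the intergenic ones. Seen from the other side, 22 of the 816 H3K27ac summits between genes lay within 500 bases of an intergenic SP1 summit, where 4.15% of all H3K27ac summits had an SP1 summit that close.

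The shared summits scored somewhat higher. Their median was 6.13 (quartiles 5.65 and 8.07) and that of the other 794 was 5.11 (4.28 and 6.25). Without summits whose nearest gene is an uncharacterised LOC entry, the medians were 6.01 for 16 shared summits and 5.11 for 769 others. LOC entries were the nearest gene of 31 intergenic summits, of which 6 were shared, or 19.4% (9.19 to 36.3). Leaving these 31 out gave 2.04% shared (16 of 785) and 1.27% inside an H3K27ac region (10 of 785).

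Among the intergenic SP1 summits inside H3K27ac regions, the 3 in the best-ranked ones had PHLDA1, ITGB1 and ERRFI1 as their nearest genes. A rank of 1 is the best of 2710 regions. The region of rank 7, on chromosome 12 at 75943914 to 75954077, held an SP1 summit of 4.21, at 81223 bases beyond the end of PHLDA1, an immediate early gene. The region of rank 10, on chromosome 10 at 32971460 to 32982386, held one of 5.18, at 22215 bases on the start side of ITGB1, the integrin beta 1 subunit gene. The region of rank 15, on chromosome 1 at 8090357 to 8097853, held one of 5.76, at 71172 bases on the start side of ERRFI1, which encodes an inhibitor of EGFR-family receptors, and inside the lncRNA ERRFI1-DT. All of these SP1 scores were below the SP1 list's median of 6.17. Their nearest H3K27ac summits scored 9.08, 5.39 and 5.87 and lay 657, 1861 and 184 bases away.

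Further down, the region of rank 38 on chromosome 15 held SP1 summits of 13.4 and 10.7 near LOC124903442, with H3K27ac summits of 19.1 and 21.7 at 15 and 34 bases. Rank 56 on chromosome 21 held summits of 11.9 and 6.51 near LOC102724560. Rank 67 held the summit of 54.0 near LOC124905368. Rank 69 held one of 5.56 at 69215 bases from MED13, a subunit gene of the Mediator kinase module. Rank 94 held the summit of 5.06 near ZNF217. The summits near TBC1D28 (6.13) and PRPSAP2 (4.35) were in regions of rank 113 and 232, and that near LOC101929601 was in rank 148. Those near CHD2 (6.13), a chromatin remodeller gene 96072 bases away, and TP53TG3F (8.07) were in regions of rank 363 and 404. In all, 13 of the 16 summits were in the best-ranked 271 regions, 10 of them in the best 100. Ranks were not counted for the 88 SP1 summits of the whole list in H3K27ac regions. These counts are therefore descriptions and show no preference of intergenic summits for well-ranked regions. The scores over 10 were beside LOC entries. That near TP53TG3F was 8.07, and those near ITGB1, ERRFI1, PHLDA1, MED13, ZNF217 and CHD2 were 6.13 or less.

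Of the shared summits outside H3K27ac regions, the highest was near PYGL, the liver glycogen phosphorylase gene. It scored 11.7 at 11279 bases on the start side of the gene, and the H3K27ac summit 97 bases away scored 4.68. Those near CNTNAP3 (8.07), ATP5IF1 (7.61) and LOC102724560 (6.17) followed. ITGA5, the integrin alpha 5 subunit gene, had its summit 4203 bases from its start side, with an H3K27ac summit of 4.42 at 317 bases.

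Most intergenic SP1 summits were also in the authors' ranked SP1 regions. Of the 816, 732 were inside one, or 89.7% (87.4 to 91.6), beside 44.1% of all SP1 summits. Over 100 kb from genes the share was 97.2% (95.6 to 98.2), inside genes 67.7% (65.2 to 70.2), and at gene ends 1.90% (1.39 to 2.59). Single-peak regions held 684 of these 732. The 84 summits outside regions scored higher, with a median of 6.75 (6.16 to 7.51) against 5.004 (4.85 to 5.21), and 42 of the 84 lay within 2500 bases of a listed start site, against 9 of the 732. Between 1000 and 2500 bases from a gene 37.7% were in a region, and between 2500 and 5000 bases 97.1% were. The SP1 regions thus held few of the intergenic summits close to listed start sites, and few of the summits at gene ends. Not all summits outside regions were so close to a start site. Whether the list was made to leave out start sites is not stated. No intergenic summit was in the 10 best SP1 regions and 48 were in the best 100. Ranks were not counted for all 2454 SP1 summits in SP1 regions. These counts are therefore descriptions and show no preference for or against well-ranked SP1 regions. The best such region, of rank 11 and 12730 bases, held summits of 10.4 and 5.18 near OR2V2, an olfactory receptor gene. Rank 12 held summits of 4.03 and 3.70 near LOC124902048. Rank 13 held 7.28 near SWI5, a recombination factor gene. Rank 14 held 3 near LOC102724560, rank 16 held 3.05 near the EFNA4-EFNA3 readthrough gene, and rank 17 held the summit of 41.8 near CD248.

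Intergenic summits were mostly solitary. Another SP1 summit lay within 10000 bases of 77, or 9.44% (7.62 to 11.6), beside 18.8% of all SP1 summits. The share was 7.76% (5.88 to 10.2) over 100 kb from genes, 13.6% (11.9 to 15.6) inside genes and 23.6% (21.8 to 25.5) at gene ends. For 47 of the 77 the nearest was itself intergenic and for 20 it was at a gene end. Joined within 10000 bases, the 816 summits formed 791 groups, of which 768 were single summits, 21 were pairs and 2 were groups of 3. One group of 3, over 9752 bases on chromosome 1, lay near CFAP126, a cilia gene, with scores from 7.89 to 9.35. The other lay near LOC102724560.

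Some of the sequence between protein-coding genes holds genes of other kinds. Inside lncRNA spans, away from their ends, were 146 summits (17.9%), with a median score of 5.21 against 5.11 for the others. Genes of other kinds lay at or within 1000 bases of 58 summits, or 7.11% (5.54 to 9.08), beside 4.36% of all SP1 summits. The share was 11.3% (6.95 to 17.8) at lncRNA ends, 3.96% (2.68 to 5.83) over 100 kb from genes, 3.56% at gene ends and 3.22% inside genes. Each kind was counted for intergenic summits only, so no kind is shown to be particular to them. Transcribed pseudogenes accounted for 20 of the 58 summits, with a median of 7.10, and other pseudogenes for 19, with a median of 4.62. One of the first, with a score of 9.43, lay inside ORAI1, a calcium channel gene that the table lists in this class. Transfer RNA genes, which RNA polymerase III transcribes, accounted for 13, with a median of 6.73 and a range from 3.98 to 10.8. The highest was 264 bases from TRQ-TTG1-1 on chromosome 17, and the next, at 8.43, was 132 bases from TRV-CAC1-1 in the group near CFAP126. A summit of 8.0004 lay 911 bases from VTRNA1-2, a vault RNA gene. None of the 13 summits near transfer RNA genes had an H3K27ac summit within 500 bases. The share was 2.696% among all 816 intergenic summits, so 13 are too few for this absence to set them apart.

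The summits were spread over all chromosomes of the files except chromosome 19, which the rule leaves out, and Y, which had none. Chromosome 17 had 2.19 per Mb (1.62 to 2.90), chromosome 12 1.83 (1.41 to 2.33) and chromosome 5 1.68 (1.32 to 2.11). Chromosome X had 0.181 (0.0829 to 0.344), with 9 summits in 49.7 Mb, where the H3K27ac list was also sparse with 10. Chromosomes 13, 21 and 4 were low too, with 0.365 (0.158 to 0.720), 0.389 (0.106 to 0.996) and 0.502 (0.314 to 0.760). On chromosome 5 the intergenic summits were 24.5% of all SP1 summits there and on chromosome 17 14.3%. In the whole list, with chromosome 19, they were 816 of 5570.

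The 816 summits had 749 protein-coding genes as their nearest, or 4.03% of the 18586 genes off chromosome 19. Of these genes, 690 were nearest to 1 summit. LOC124903442 was nearest to 4, and LOC102724560, CFAP126, the guidance ligand gene EFNA5 and ELMO1, an engulfment and motility gene, were among the 6 genes nearest to 3. The share of these genes with an SP1 summit at their own ends was close to that of all genes. An SP1 summit lay at an end of 92 of the 749, or 12.3% (10.1 to 14.8), beside 12.5% of all genes off chromosome 19. At listed start sites the share was 13.7% (11.2 to 16.7) of 590 genes, beside 13.6%. An H3K27ac summit lay at an end of 2 of the 749, KCNJ12 and DTNB, or 0.267% (0.0733 to 0.968), beside 0.888%. KCNJ12 and DTNB are named because the count was small.

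Gene lists had between 0 and 4 of their genes nearest to an intergenic summit. The share was above the background of 4.03% in 8 of 11 lists, on counts of 1 to 4 genes each. Genes with more intergenic sequence around them are nearest to a summit more often by construction, so the counts are descriptions. Of 20 integrin and matrix adhesion genes 3 (15%) were nearest to a summit, ITGA5 (6.08), ITGB1 (5.18) and ITGA3 (3.92, at 28198 bases). Immediate early and stress genes had 4 of 22 (18.2%), namely TRIB1 (4.94), PHLDA1 (4.21) and the phosphatase genes DUSP6 (4.11) and DUSP5 (3.17). SP and KLF factors had 3 of 24 (12.5%). SP1 itself had an intergenic summit of 7.60 at 9025 bases on its start side and one of 25.7 at an end, KLF9 had 6.92 at 4195 bases, and SP3 had 4.25 at 43098 bases. AP-1, TEAD, RUNX, SMAD and ETS factors had 2 of 25 (8%). The summit near FOS scored 9.49 at 19892 bases on the start side, where an end of the gene also had one of 12.1, and RUNX3 had 7.25 at 71884 bases. Mesenchymal genes had 1 of 16 (6.25%), SNAI2 (4.58), and secreted signals 1 of 25 (4%), DKK1 (5.21), a Wnt inhibitor gene. Of 23 lung adenocarcinoma genes and 14 alveolar and airway genes none was nearest to an intergenic summit. Among lists of other tissues, blood markers had 1 of 15 (6.67%), the lectin-like receptor gene KLRD1 with summits of 6.13 and 4.34, and hepatocyte markers 1 of 14 (7.14%), SERPINA1 (3.87).

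The RGS family had 2 of 21 (9.52%). RGS6 had a summit of 7.56 at 11756 bases on its start side, with the nearest H3K27ac summit 15031 bases away, and RGS4 had one of 5.46 at 20004 bases beyond its end. RGS20, which the title of the series names as activated by SP1, was not the nearest gene of any intergenic summit. The rule leaves out gene ends and gene interiors, so this absence does not bear on SP1 at RGS20 itself. Of the 21 RGS family genes 0 had an SP1 summit at either end, beside 12.5% of all protein-coding genes off chromosome 19. On 21 genes this is a description and was not tested. SP1 summits inside RGS20 are not reported here. The intergenic SP1 summit closest to RGS20 was 596620 bases away and had RP1 as its nearest gene, with a score of 3.83. Summits below the calling threshold cannot be seen in these files.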

How the data were processed

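Summit and region lists were used for SP1 and H3K27ac. The deposited summit scores are the authors' −log10 values of a significance measure, either a p-value or a q-value, with no statement of which. The deposited regions carry a rank, a score with 1 as the best, per the file contents. Coordinates are hg38, per the submitters' processing notes, which also name deepTools 3.4.1 and cutadapt 2.5. Aligner, peak caller, calling control and depth: not given in the sources used here. A deeper library or another control would change which weak summits were called.

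Distances were computed with Python 3.11.15, pandas 2.3.3 and SciPy 1.17.1 to gene spans of RefSeq, and to start sites of a RefSeq promoter table where it lists the gene. Of 7 summits with tied nearest genes, the first in table order was kept. Shares have Wilson intervals, densities exact Poisson intervals and medians order-statistic intervals. Classification was tested on simulated positions. Territory ends at the last gene or summit of a chromosome. Named are the 10 highest intergenic summits, up to 15 in H3K27ac regions by rank and up to 10 shared ones by score, those in the best-ranked SP1 regions (6), 3 on each side of each limit, up to 4 genes per list and the 5 genes with the most summits, with RGS20. The rule, lists and named sets were chosen with earlier results of these data known.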

Additional observations from a re-analysis of the deposited data

How the results depend on the processing

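No paired analysis was possible because each antibody had 1 library. Of 47 alternative values, 34 stayed within the 95% interval of the value reported (counts, within 1.5 times) and 13 moved outside it. Above the SP1 list's median score (214 summits) the median was 7.59, and 4.67% were within 500 bases of an H3K27ac summit, 3.27% in an H3K27ac region and 76.2% in an SP1 region. Above its upper quartile (62 summits) these were 11.2, 8.06%, 8.06% and 64.5%. Of the shared intergenic summits 5 scored over 10, and only 1 did when nearest genes that are LOC entries were left out. The H3K27ac shares of all SP1 summits above these scores were not computed, so no trend particular to intergenic summits is shown. Choosing by score sets the higher medians by construction. The share in SP1 regions was 95.9% with an inner limit of 2500 bases, 95.9% with 5000 bases and 93.8% outside genes of every kind. A neighbouring SP1 summit was found for 3.55% within 1000 bases and 29.2% within 50000 bases, which the window sets by construction. For the others the cause was not tested. The alternative without LOC entries was chosen after seeing the data. GC boxes at the summits were not run for lack of sequence. The unknown depth limits all calls near the threshold.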
